A study of Mus musculus with 10 samples.

Results

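Incomplete splice matches are isoforms whose introns all belong to a known transcript but are not all of that transcript's introns. Exons are lacking at an end, an intron is kept as exon, or both. The isoforms described here are those with at least 2 exons that the authors placed in the incomplete-splice_match class under any subcategory except 5prime_fragment. They were taken by these columns from the long-read tables of mature mouse thymocytes of the helper lineage, which carry CD4 alone (CD4SP), and of the cytotoxic lineage, which carry CD8 alone (CD8SP). There were 304 among 8289 isoforms of CD4SP and 299 among 9476 of CD8SP, 603 of 17765 in all.

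Both groups came from C57BL/6 mice aged 6 to 8 weeks, with no treatment or genetic change named in the labels. For each sample 2 to 3 thymi were pooled, cells with the other coreceptor, and with them the double-positive cells, were depleted on magnetic beads, and sorting then kept TCRβ+ CD24- cells that were CD4+ CD8- or CD8+ CD4-. Each lineage had 1 long-read PacBio library, and 4 short-read lanes that were deposited as 1 pooled table, so no value below has a replicate. Intervals are exact Clopper-Pearson intervals at the 95% level, and tests are 2-sided Fisher's exact tests that compare these 2 libraries, not the lineages. No read counts stand beside the isoforms, so their depth is unknown and each was counted once. Markers followed the labels in the short reads: Cd4 stood at 107 FPKM (fragments per kilobase of transcript, scaled to library size, summed over RefSeq transcripts) in CD4SP and 0.872 in CD8SP, and Cd8b1 at 25.6 and 464. Of 4 markers of double-positive or immature thymocytes, Rag1 stood at 12.5 and 4.12, Cd24a, the surface marker the sort selected against, at 11.8 and 10.1, Rag2 at 0.779 and 0.387, and Ptcra at 0.213 and 0.167. Of 4 B cell markers the highest was Cd79b at 0.583 and 4.58. Of 4 myeloid, 4 erythroid and 4 epithelial markers, the highest were Cst3 at 13.2 and 26.0, Hbb-bs at 3.67 and 3.11, and Epcam at 0.465 and 0.0239. In such bulk samples fewer cells of a type and less RNA per cell cannot be told apart. None of the 33 markers examined other than Cd3e held an isoform of the kind described here, and what the other cells contribute was not tested.

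A transcript is normally capped at its promoter, spliced while it is being made, and cut and polyadenylated downstream of a signal hexamer such as AATAAA. Introns that stay in a polyadenylated transcript are known in T cells as a means of holding RNA in the nucleus or exposing it to decay. Polyadenylation inside an intron shortens a transcript and can remove the carboxy terminus of its protein. In cDNA synthesis a primer of T bases can also anneal to stretches of A inside an RNA, which is why long-read tables list the percent of A in the genome after each 3′ end.

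Checked against the exon positions of the associated transcripts, the subcategory names ran against what a reader may take from them. All 34 isoforms of CD4SP and all 32 of CD8SP named 3prime_fragment kept the 5′ part of their transcript and lacked at least 1 exon at the 3′ end, and 0 lacked a 5′ exon. The excluded 5prime_fragment isoforms lacked 5′ exons in 733 of 733 and in 1101 of 1101 cases that could be placed. The 101 internal fragments of CD4SP and 96 of CD8SP lacked exons at both ends. The largest subcategory was neither: 169 and 171 isoforms were named intron_retention, and these kept at least 1 intron of their transcript as exon. Which exons are lacking at which end is therefore set by the class in the first 2 subcategories and is a description. The 3prime_fragment subcategory held 11.2% of the CD4SP members and 10.7% of the CD8SP members (Fisher's exact test, adjusted p = 0.897).

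The sequences at 3′ ends printed here were chosen after their values were seen, so they are examples and do not represent the classes. An exon of the associated transcript held the 3′ end of 15 of 101 internal fragments in CD4SP and 23 of 96 in CD8SP. At least 60% A followed 55.4% and 50% of all internal fragments, and 21.3% and 15.8% of isoforms with retained introns. The first set shows the 20 bases that follow ends lying in coding exons of the associated transcript. It covers Crebbp, a histone acetyltransferase (internal fragment of CD4SP, chr16:4091833-4091852, minus strand), Ctcf, the insulator protein (internal, CD4SP, chr8:105677295-105677314, plus), Kmt2c, a histone methyltransferase (internal, CD8SP, chr5:25299489-25299508, minus), Smarca4, the ATPase of the BAF complex (3prime_fragment, CD8SP, chr9:21642564-21642583, plus), and Ezh2, the methyltransferase of Polycomb complex PRC2 (3prime_fragment, CD8SP, chr6:47545707-47545726, minus). All sequences are GRCm38, read 5′ to 3′ from GENCODE M21 transcripts, and capitals mark A.
Crebbp, after the end: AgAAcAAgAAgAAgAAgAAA
Ctcf, after the end: cAAAcgAggAAgAAAAAgAA
Kmt2c, after the end: AAAAgAAcAAgAAAAAAgAA
Smarca4, after the end: AggAgAAgAAgAAgAAAAAg
Ezh2, after the end: AcAAtgAtAAAgAAgAAgAA
These 5 windows were between 65% and 80% A, as runs of A broken mostly by G.

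The second set shows ends in coding exons where the A stretch came before the end, in the last 20 bases of the isoform, so that the deposited percentage after the end stayed under 60%. It covers Jarid2, a PRC2 cofactor (internal, both libraries with the same 3′ end, chr13:44914306-44914325, plus), Kmt2e, a chromatin regulator (internal, both libraries with the same 3′ end, chr5:23485451-23485470, plus), and the internal fragment of Smarca4 in CD8SP (chr9:21642569-21642588).
Jarid2, last 20 bases: gcAcAAgcAgAAgcAAAAAA
Kmt2e, last 20 bases: gAAggAAAAAAggAAAAAAA
Smarca4 internal, last 20 bases: AAgAAgAAgAAAAAgAAAAA
Before the end these were 60%, 75% and 80% A, while after it the deposited values were 30%, 55% and 15%. The 2 Smarca4 isoforms ended on either side of the same A stretch.

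The third set shows intron_retention isoforms that ended within 9 bases of an annotated end, as the last 30 bases with the signal hexamer in capitals. It covers Lck, the kinase that starts T cell receptor signalling (CD4SP, chr4:129548358-129548387, minus), Cd3e, a chain of the T cell receptor complex (CD4SP, chr9:44998742-44998771, minus), the splicing factor gene Sf1 (CD8SP, chr19:6377165-6377194, plus), and Cabin1, which encodes a calcineurin-binding protein (CD4SP, chr10:75646113-75646142, minus).
Lck, last 30 bases: accaggagctcAATAAAagtctgttgaatt
Cd3e, last 30 bases: tgcaaaaggcAATAAAgtgtattggctggg
Sf1, last 30 bases: aatgttccattgAATAAAagagcagtgtgg
Cabin1, last 30 bases: tgcttctttttctAATAAAggtggaaaata
After these ends the deposited A percentages were 25%, 20%, 0% and 5%.

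The members came from 231 genes in CD4SP and 227 in CD8SP, which is 7.62% and 6.30% of the annotated genes listed in the libraries. In 180 genes of each library there was 1 such isoform, and the most in a gene was 5. A 5prime_fragment isoform was also listed for 75 of the CD4SP genes (32.5%) and 95 of the CD8SP genes (41.9%). A full splice match of several exons was listed for 53 of the 231 genes (22.9%) and 49 of the 227 (21.6%). Over all annotated genes listed, such a full match was placed in 310 of 3031 in CD4SP and 423 of 3602 in CD8SP. A 5prime_fragment isoform was placed in 592 and 886 of these genes. Both kinds were thus more frequent among genes with a member than among all genes listed. The members made up 3.67% of listed isoforms in CD4SP and 3.16% in CD8SP, a difference of -0.51 percentage points (Fisher's exact test, adjusted p = 0.103 over 5 tests). The associated transcript was annotated as protein-coding for 65.8% and 65.9% of the members, as a retained-intron transcript for 16.1% and 17.4%, and as a target of nonsense-mediated decay (NMD) for 9.21% and 10.7%. In the short reads the genes stood at a median of 6.09 FPKM in CD4SP and 8.33 in CD8SP, against 5.28 and 6.84 for all annotated genes listed and 8.33 and 11.6 for genes with a multi-exon full match.

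Internal fragments lacked a median of 4 exons at the 5′ end in each library, and 4 (CD4SP) and 5 (CD8SP) at the 3′ end, from transcripts with a median of 15 and 15.5 exons. They kept a median of 3 and 4. The 3prime_fragment isoforms lacked a median of 4 and 3.5 exons at the 3′ end. Isoforms with retained introns lacked a median of 3 exons at the 5′ end in each library. Of these, 127 of 169 and 137 of 171 lacked at least 1 such exon, and 34 and 27 lacked a 3′ exon. Over all members the median number of lacking 5′ exons was 3 (quartiles 0.75 and 6) in CD4SP and 2 (1 and 5) in CD8SP, and 12.2% and 12.7% lacked 10 or more.

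**Figure D1:**
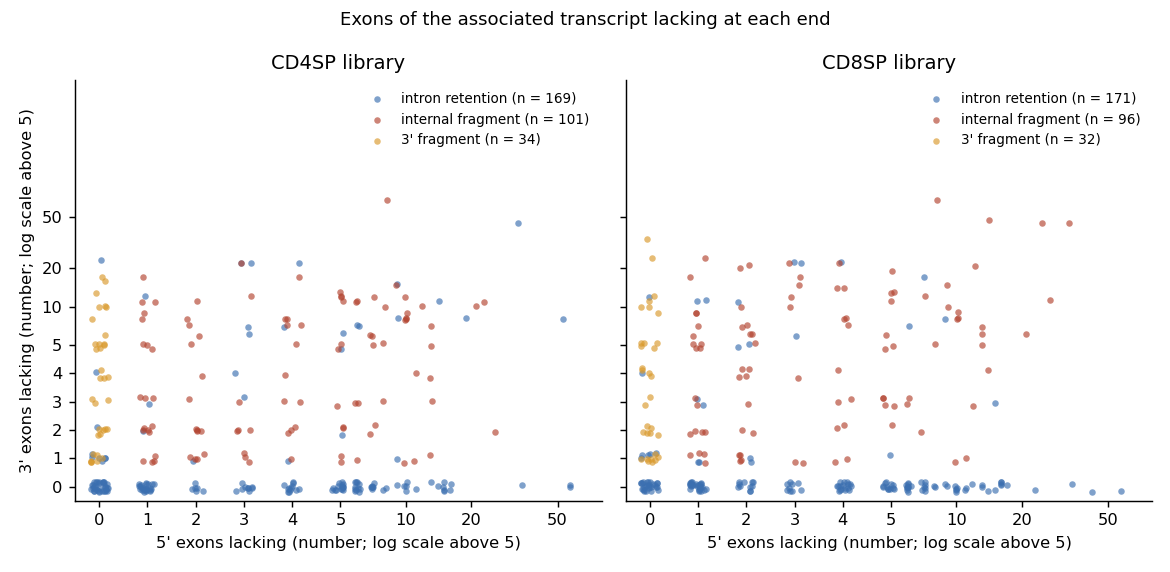
Each point is an incomplete match, placed by the number of exons of its associated transcript lacking at the 5′ end (x axis) and at the 3′ end (y axis), linear up to 5 and logarithmic above, with a small random shift to separate points. The 3prime_fragment isoforms lie at 0 on the x axis, the internal fragments above 0 on both axes, and most isoforms with retained introns at 0 on the y axis, out to 57 lacking 5′ exons.

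The isoforms that lacked most 5′ exons belonged to transcripts of many exons. Those of Utp20, Cabin1 and Cnot1 reached the 3′ end of their transcript. Utp20, which encodes a component of the small-subunit processome that makes ribosomes, had 62 exons in its transcript. Its isoforms lacked 57 of them in both libraries and ended within 4 bases of the annotated end (chr10:88746611-88751322, 2785 bases, in CD4SP and chr10:88746610-88751330, 2794 bases, in CD8SP). Both kept the intron of 1110 bases between 88749542 and 88750651, and a further CD4SP isoform of 3666 bases kept a neighbouring intron of 907 bases too. Cabin1 isoforms of 3507 and 3505 bases had 2 exons, lacked 34 of 37 at the 5′ end, and retained the same intron of 955 bases. In CD8SP a Cnot1 isoform, from the scaffold gene of the CCR4-NOT deadenylase, lacked 42 of 48 exons at the 5′ end and ended 8 bases from an annotated end. The others of this group lacked exons at both ends. Kntc1, a kinetochore gene, lacked 53 and 8 of 64 exons in CD4SP. Mycbp2, which encodes a ubiquitin ligase, lacked 33 and 45 of 83 exons in both libraries, in isoforms that began 30 bases apart. Abcc5, a transporter gene, lacked 26 and 2 of 31 in CD4SP. Herc1 lacked 25 and 45 of 78 and Myo9a, an unconventional myosin gene, 27 and 11 of 44 in CD8SP.

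Over all members the 5′ end lay in an intron of the associated transcript in 70.4% (CD4SP) and 70.2% (CD8SP), and the 3′ end in 146 of 304 (48.0%) and 117 of 299 (39.1%). The 5′ end fell in an intron of the associated transcript in 90 of 101 internal fragments of CD4SP (89.1%, interval 81.3 to 94.4) and 81 of 96 of CD8SP (84.4%, 75.5 to 91.0). Among isoforms with retained introns these shares were 73.4% and 75.4%, and among the excluded 5prime_fragment isoforms 74.9% and 56.9%. Judged against every annotated exon of the gene, 80.2% and 77.1% of the internal fragments still began outside an exon. The nearest annotated start of the gene lay a median of 3989 and 3847.5 bases away, and 5.94% and 4.17% began within 100 bases of one, against 54.4% and 56.7% of full matches.

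The 3′ end fell in an intron in 85.1% of internal fragments in CD4SP (interval 76.7 to 91.4) and 76.0% in CD8SP (66.3 to 84.2). For 3prime_fragment isoforms these shares were 79.4% (62.1 to 91.3) and 62.5% (43.7 to 78.9). Over both subcategories, 83.7% and 72.7% ended in an intron of the associated transcript and 70.4% and 63.3% in no annotated exon of the gene. Where the end did fall in an exon, that base was coding in 11 of 15 internal fragments of CD4SP and 17 of 23 of CD8SP, and in 5 of 7 and 10 of 12 3prime_fragment isoforms. The same held for 0 of 90 and 2 of 80 isoforms with retained introns. Isoforms with retained introns ended differently: 33 of 169 and 24 of 171 ended in an intron, and 62.7% and 64.3% within 100 bases of an annotated end of the gene, against 15.8% and 17.7% of internal fragments and 74.9% and 75.7% of full matches.

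**Figure D2:**
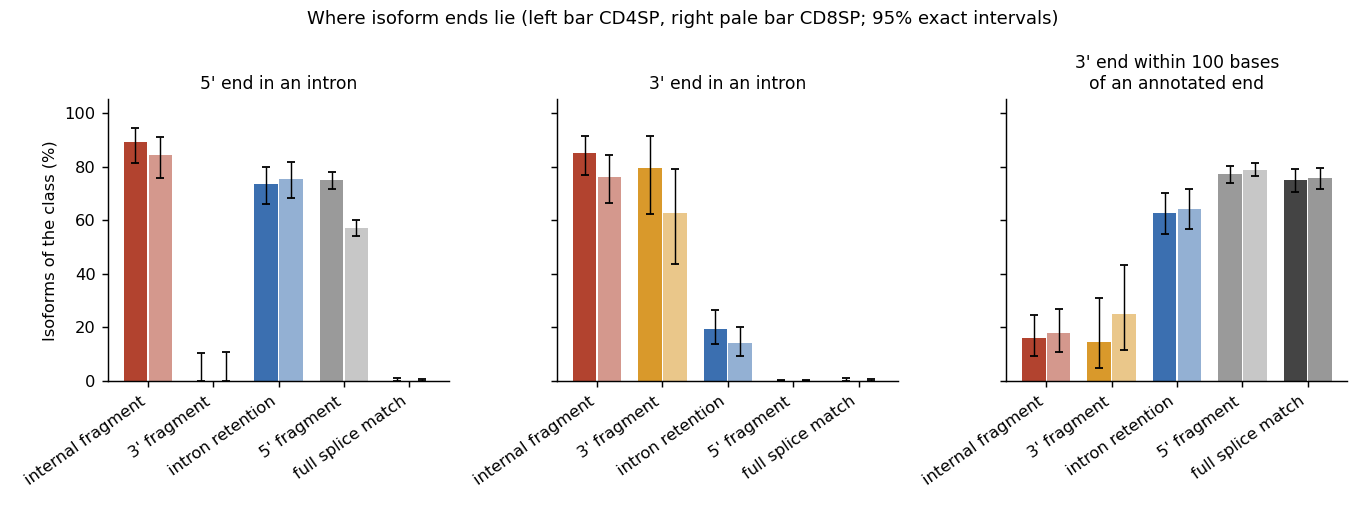
Bars give the percentage of isoforms in each class whose 5′ end lies in an intron, whose 3′ end lies in an intron, and whose 3′ end lies within 100 bases of an annotated end, with 95% exact intervals. By definition of the class, full splice matches are at 0 in the first 2 panels, 3′ fragments in the first and 5′ fragments in the second, and internal fragments reach 89.1% and 85.1% there in CD4SP.

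A content after the 3′ end separated the subcategories. The median of the deposited percentage over 20 bases was 65% (CD4SP) and 57.5% (CD8SP) for internal fragments, 62.5% and 55% for 3prime_fragment isoforms, and 25% in each library for isoforms with retained introns. Full splice matches had medians of 20% and 25%. At least 60% A followed 56 of 101 and 48 of 96 internal fragments, 18 of 34 and 14 of 32 3prime_fragment isoforms, and 36 of 169 and 27 of 171 isoforms with retained introns. Over all members this was 110 of 304 in CD4SP (36.2%, interval 30.8 to 41.9) and 89 of 299 in CD8SP (29.8%, 24.6 to 35.3). The same threshold was met by 64.0% and 60.1% of all listed isoforms, most of which are outside the splice-match classes.

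Against multi-exon full splice matches the members were A-rich more often in both libraries. In CD4SP 37 of 397 full matches met the threshold (9.32%), 26.9 percentage points fewer than the members (Fisher's exact test, adjusted p = 2.16e-17). In CD8SP it was met by 59 of 527 (11.2%), 18.6 points fewer (Fisher's exact test, adjusted p = 1.63e-10). These tests pool the subcategories. Isoforms with retained introns alone met it in 21.3% in CD4SP (interval 15.4 to 28.3) and 15.8% in CD8SP (10.7 to 22.1). The intervals of full matches were 6.65 to 12.6 and 8.63 to 14.2. By class, internal and 3prime_fragment isoforms lack 3′ exons and full matches do not. The share of A-rich members was 6.42 points lower in CD8SP than in CD4SP, and this difference did not pass (Fisher's exact test, adjusted p = 0.125). CD8SP minus CD4SP, it was -2.80 points at a threshold of 80% A, and -1.97 points over the members whose window could be recomputed from annotated sequence. None of these tests treats isoforms as replicates of mice.

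**Figure D3:**
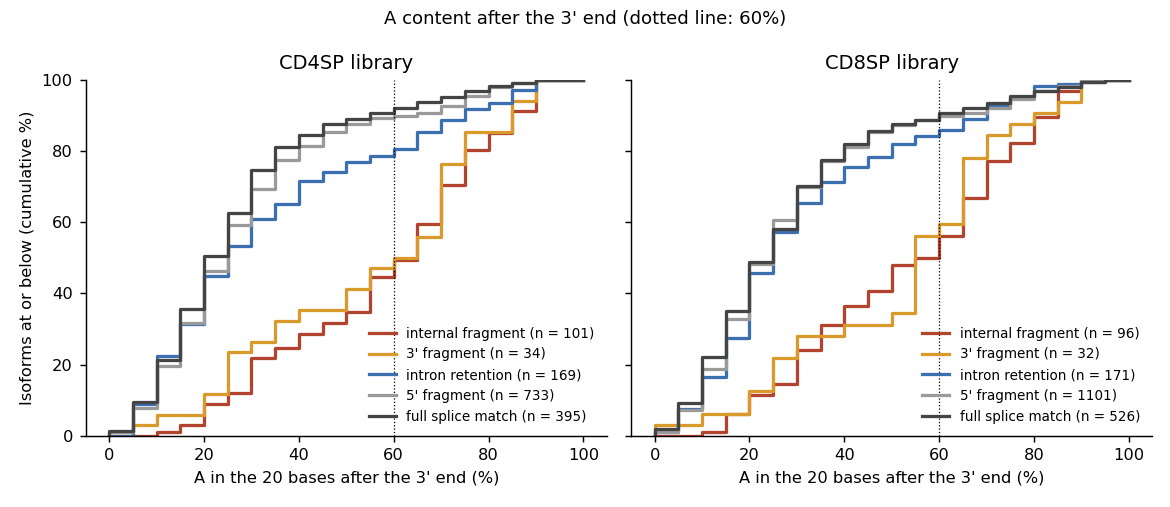
Curves give the cumulative percentage of isoforms (y axis) with at most a given percentage of A in the 20 bases after the 3′ end (x axis), by class and library. The curves of internal and 3′ fragments lie to the right of all others over most of the range, and that of intron retention lies close to the full matches at its lower end.

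Over all members the A content differed with where the isoform ended, but not in each subcategory. Of members ending in an intron 56.2% (82 of 146) and 48.7% (57 of 117) were A-rich, against 20.5% (23 of 112) and 16.5% (19 of 115) of those ending in an exon. Among isoforms with retained introns, 20 of 33 and 10 of 24 intronic ends were A-rich, while 11 of 90 and 4 of 80 exonic ends were. Ends past the end of the associated transcript, which among members occurred only in this subcategory, were A-rich in 5 of 46 and 13 of 67. Internal fragments were A-rich in 49 of 86 and 38 of 73 intronic ends (57.0% and 52.1%) and in 7 of 15 and 10 of 23 exonic ends (46.7% and 43.5%), with intervals that overlapped in each library. The 3prime_fragment isoforms went the other way in CD4SP, with 13 of 27 intronic and 5 of 7 exonic ends A-rich, and stood at 9 of 20 and 5 of 12 in CD8SP. The deposited percentage was recomputed from annotated exon sequence for 200 members whose window could be read, and was equal in 200.

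The bases before the end added to this. In the isoforms whose last 50 bases could be read, at least 60% A stood in the 20 bases on either side of the end in 23 of 26 internal fragments of CD4SP (88.5%, interval 69.8 to 97.5) and 19 of 28 of CD8SP (67.9%, 47.6 to 84.1). The 3prime_fragment isoforms gave 5 of 8 and 11 of 14. Isoforms with retained introns gave 25.2% and 21.1%, and full matches 18.3% and 17.7%. Of internal fragments under 60% after the end, 8 of 11 and 5 of 14 had 60% or more before it, as in the Jarid2, Kmt2e and Smarca4 sequences above. Ends that could be read lay mostly in annotated exons, so these shares describe a minority of the internal fragments.

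The polyadenylation hexamers AATAAA or ATTAAA, searched on the transcript strand in the last 50 bases, went the other way. They were found in 89 of 123 readable ends with retained introns in CD4SP (72.4%) and 84 of 128 in CD8SP (65.6%), against 79.7% and 76.8% of full matches. Readable internal fragments held one in 5 of 26 and 3 of 28 cases, and 3prime_fragment isoforms in 2 of 8 and 2 of 14. Of 58787 annotated protein-coding transcripts, 50.2% hold a hexamer in this window. The letters say only what is in the window and do not mark a used site. How far A stretches, rather than cleavage sites, set the ends of the fragments was not tested.

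The highest A percentages, 90% or 95%, mostly followed ends in introns of the associated transcript. In CD4SP 16 members were tied at 90%, and in CD8SP 6 stood at 90% and 1 at 95%. Of the tied CD4SP members, 5 are named, the first by symbol, namely internal fragments of Gata3, the transcription factor of the helper lineage, of Dnm2, a dynamin, and of Dnaja3, a mitochondrial co-chaperone, and isoforms with a retained intron of Abcc1, a transporter gene, and Ddx42, a helicase gene. In CD8SP Racgap1 reached 95%, and Suz12, a PRC2 subunit gene, Oga, Ppm1a and Bace1 were among those at 90%. The isoforms of Racgap1, a cytokinesis gene, and Bace1, which encodes a membrane protease, ended 1 and 2 bases from an annotated end, while the other 8 named here ended at least 1059 bases from one. The windows that could be read, after the ends of Ppm1a, a phosphatase gene (chr12:72787394-72787413), and Bace1 (chr9:45862218-45862237), were nearly pure A.
Ppm1a, after the end: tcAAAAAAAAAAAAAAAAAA
Bace1, after the end: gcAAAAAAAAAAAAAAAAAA
At the other extreme, 8 of the 66 3prime_fragment isoforms had 20% A or less. Uhrf1bp1l (CD4SP, 2429 bases, 20% A) lacked 10 of 12 exons and Gm28036 (CD4SP, 3880 bases, 10% A) 4 of 7, both ending in introns.

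At the median, members were longer than full matches. Their median length was 3138.5 bases (quartiles 2545 and 3835) in CD4SP and 2809 (2185 and 3370) in CD8SP, while full matches of several exons had medians of 2717 and 2417. By subcategory the medians were 2911 and 2511 for internal fragments, 2900.5 and 2185 for 3prime_fragment isoforms, and 3395 and 2974 for those with retained introns. Isoforms of CD8SP were shorter in every class shown, the classes outside the members included. They held few exons for this length: 126 of 304 and 126 of 299 had 2. The reading frames the authors predicted were short. Where an isoform was called coding (76.0% and 76.3% of members), its median frame was 173 amino acids in CD4SP and 183 in CD8SP, against 323 and 341 in full matches. The annotated start codon was kept by 22 of 25 and 20 of 22 3prime_fragment isoforms of coding transcripts, and the annotated stop codon by 2 of 25 and 2 of 22. Internal fragments kept the start codon in 6 of 83 and 10 of 82 cases and the stop codon in 4 of 83 and 4 of 82. Isoforms with retained introns kept the stop codon in 96 of 120 and 106 of 125 cases and the start codon in 12.5% and 14.4%. NMD was predicted by the authors for 18.8% and 14.8% of coding isoforms with retained introns 2.56% and 1.35% of coding internal fragments, and 2 of 25 and 4 of 26 coding 3prime_fragment isoforms. Among coding full matches it was predicted for 9.48% and 9.01%.

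**Figure D4:**
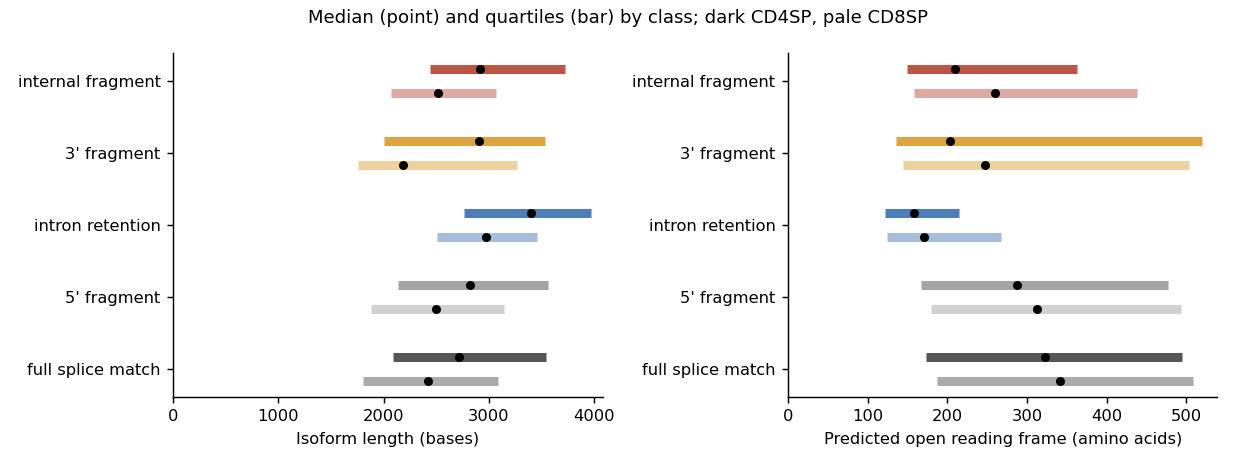
Bars span the quartiles and points mark the median of isoform length in bases (left) and of the authors' predicted open reading frame in amino acids (right), by class, dark for CD4SP and pale for CD8SP. Isoforms with retained introns are the longest class, at medians of 3395 and 2974 bases, and have the shortest frames, at 158.5 and 170 amino acids.

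The intron_retention isoforms kept 187 distinct introns in each library, of which 92 were the same in both. In CD4SP 127 isoforms kept 1 intron, 28 kept 2 and 14 kept 3 or more, and in CD8SP 122, 31 and 18. The kept introns had a median of 520 and 362 bases, and 14.4% and 16.6% were the last intron of the associated transcript. The shortest in CD8SP were annotated gaps of 2 bases in Cfl1. These count as kept introns in the CD8SP values below, and no short-read transcript spliced them. The pooled short-read transcripts were used as a further readout of these introns. A multi-exon short-read transcript crossed the kept intron unspliced, with at least 10 bases on each side, for 109 of 187 in CD4SP (58.3%) and 99 of 187 in CD8SP (52.9%). For introns that the same isoforms had spliced out these shares were 50.3% and 39.5%. Unspliced transcripts carried at least 20% of the FPKM over the intron for 18.5% and 18.2% of kept introns against 13.4% and 9.46% of spliced ones. This readout and the median unspliced share cover only introns with at least 1 FPKM over them. These were 173 and 170 kept introns, and 344 of 362 and 349 of 370 spliced ones. The spliced introns had medians of 563.5 and 514.5 bases, longer than the kept ones in each library. With 1 pooled value per lineage no test was made. The median unspliced share was 5.19% and 2.18% for kept introns against 3.07% and 0% for spliced ones, and the kept introns were also spliced out in some short-read transcript in 90.9% and 89.8%. Introns spliced in members were also introns of a short-read transcript with FPKM above 0 in 98.0% of 805 (CD4SP) and 98.5% of 847 (CD8SP). For full matches these shares were 98.5% and 98.6%. All of these introns belong to annotated transcripts, and the short-read transcripts include RefSeq ones, so the readouts are not independent.

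The libraries shared part of their genes with a member. Of 337 genes with a member, 121 had one in each library, 52.4% of the CD4SP genes and 53.3% of the CD8SP genes. The overlap of all annotated genes listed (3031 in CD4SP and 3602 in CD8SP) is not given here. Whether the shares of 52.4% and 53.3% are high or low for these libraries is therefore unknown. Counted over isoforms, 59.9% of CD4SP members and 61.2% of CD8SP members had a member of the same gene in the other library, 48.4% and 50.2% had one with exactly the same intron chain, and 44.7% and 45.5% one with the same chain and both ends within 100 bases. The same-gene shares were 67.8% and 52.9% for full splice matches and 69.4% and 50.3% for 5prime_fragment isoforms, above those of members in CD4SP and below them in CD8SP. Full splice matches shared their chain with a full match of the other library in 62.8% and 47.9%, and 5prime_fragment isoforms in 58.0% and 38.8%. By subcategory the same-chain shares were 43.6% and 47.9% for internal fragments, 52.9% and 56.2% for 3prime_fragment isoforms, and 50.3% in each library for isoforms with retained introns.

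**Figure D5:**
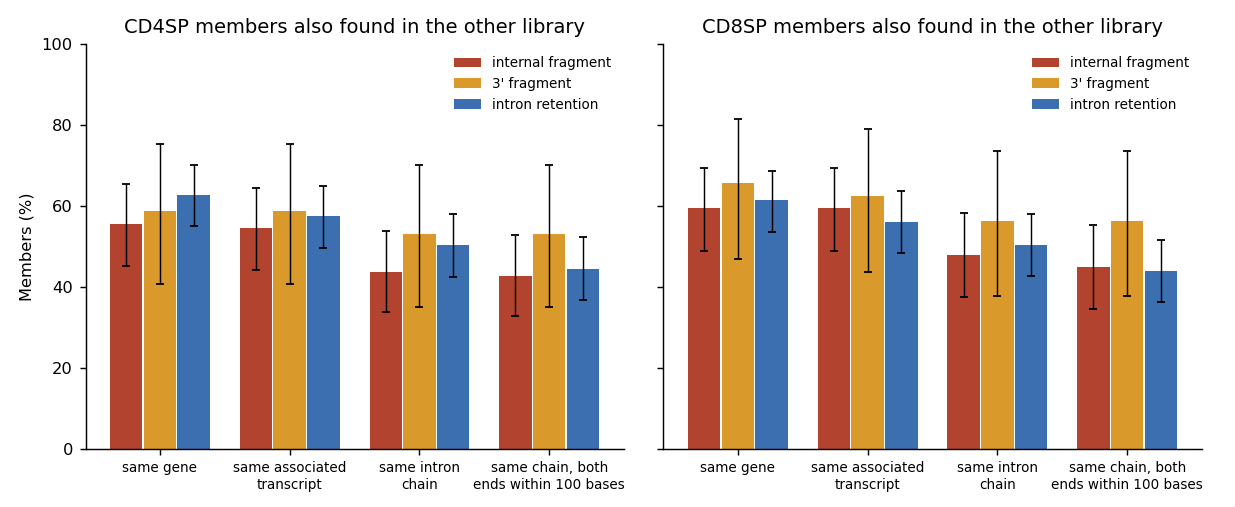
Bars give the percentage of CD4SP members (left) and CD8SP members (right) with a counterpart in the other library under 4 criteria of rising strictness, with 95% exact intervals. The bars fall from 55.4% to 65.6% at the level of the gene to between 42.6% and 56.2% for the same chain with both ends within 100 bases.

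Where a chain was shared, most ends lay close together. Of 133 shared chains, the 5′ ends of the closest pair were a median of 4 bases apart and the 3′ ends also 4. The 5′ ends lay within 20 bases in 98 pairs and the 3′ ends in 111. The pairs farthest apart at the 3′ end were those of Srek1 (2269 bases), Sept1 (1995), Esyt1 (459) and AC149090.1 (453), named here after their values were seen. For the 56 shared chains ending in an intron the median 3′ distance was 4 bases, 41 pairs lay within 20 bases and 17 ended at the same base. The shared chains with most exons, 19 each, were those of Sbno1 (of 31) and of the Smc4 3prime_fragment (of 24). That of Sbno1 was an internal fragment with 85% A after both ends. Its 5′ end was the same base in both libraries and its 3′ end differed by 1 base (chr5:124375792-124400851 and chr5:124375791-124400851). A Hcfc2 fragment of 11 exons (chr10:82707933-82739514 in CD4SP) ended at the same intronic base in both, and its start differed by 5 bases.
Hcfc2, after the end: tAtAAAggAAAAAAAAAAtA
Rock1, a kinase gene of the cytoskeleton, had an 18-exon internal fragment in both libraries with the same 5′ end and 3′ ends 11 bases apart, at 65% and 70% A. Jarid2 had one of 15 exons, with starts in introns 20 bases apart. Scaf8 fragments of 11 exons ended 26 bases apart and differed in the percentage of A after the end, 90% in CD4SP and 30% in CD8SP, so that a small shift moved an isoform across the threshold.

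Among the genes with most members, Smc4, which encodes a condensin subunit, had 5 isoforms in each library over 6 chains. A 3prime_fragment of 19 of 24 exons was found in both (2930 bases, chr3:69004991-69031443 in CD4SP, and 2940 bases, chr3:69004997-69031459 in CD8SP), and so were internal fragments of 11 and of 6 exons that ended at the same place. These 3 chains all ended between 69031441 and 69031459, where 65% to 70% A followed.
Smc4, after the CD8SP 3prime_fragment: gAcActgAAAAAgAAAtAAA
The other 4 Smc4 isoforms ended elsewhere, at 20% or 25% A. Ppp2r5c, a regulatory subunit gene of protein phosphatase 2A, had 5 and 4 isoforms that began within 16 bases of each other (chr12:110485783 to 110485799) and lacked 1, 4 or 10 of 12 exons at the 3′ end. The shortest pair held 2 exons and ended at 110524519 (85% A) in CD4SP and 110524504 (65% A) in CD8SP, and another pair ended at exactly 110526317 in both (3997 bases, 85% A). In Prrc2b, all 4 isoforms of CD4SP and all 5 of CD8SP ended at the same intronic base, 32195942 on chromosome 2, at 65% A. They began in 2 introns, between 32190481 and 32190508 or between 32192140 and 32192150, and differed in which introns they kept. Dnm2 fragments began between 21469869 and 21469908 on chromosome 9 in both libraries, after 4 lacking exons, and ended at 3 places in introns at 30% to 90% A.

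The other genes with most members held mainly isoforms with retained introns. Oga, which encodes the enzyme that removes O-GlcNAc from proteins, had 7 of them and a 3prime_fragment at 90% A. The 7 lacked no exon of transcripts with 4 or 6 exons, and ended within 15 bases of annotated ends with 0% to 25% A. Mau2, the gene of a cohesin loader subunit, had 2 and 5 isoforms, all lacking 5 exons at the 5′ end and beginning within 24 bases (chr8, 70029512 to 70029536). Esyt1, which tethers the endoplasmic reticulum to the plasma membrane, had 4 and 3, all beginning between 128518530 and 128518562 on chromosome 10. For most of these Esyt1 isoforms another set of introns gave the same length. Mms19, a gene of iron-sulfur protein assembly, had 4 and 2, with A between 20% and 85%. Mppe1, a gene of GPI-anchor remodelling, had 2 and 4, of which all but 1 lacked 6 exons at the 5′ end and ended within 8 bases of an annotated end. AC149090.1, on the unplaced scaffold JH584304.1, had 4 and 3, of which 5 were 3prime_fragment isoforms. It had no short-read value.

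Of 58 T cell genes on a list, 36 were listed in CD4SP and 42 in CD8SP, and 6 in each (16.7% and 14.3%) held a member. The share over all annotated genes was 7.62% and 6.30%. Gata3 had an internal fragment in each library that began in an exon, 2871 bases with 90% A in CD4SP and 2647 bases with 15% A in CD8SP, and the 2 ended in different introns. Short reads gave Gata3 11.6 FPKM in CD4SP and 3.72 in CD8SP.

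Lck and Cd3e had isoforms with retained introns at annotated ends in both libraries. The Lck isoforms of 3278 (CD4SP), 3186 and 3363 bases (CD8SP) kept an intron of 77 bases (chr4:129551871-129551947), and all but that of 3186 bases also kept one of 80 bases. Unspliced short-read transcripts made up 5.15% of the FPKM over the 77-base intron in CD4SP and 1.85% in CD8SP. For the Cd3e introns of 991 and 497 bases, which the long isoforms kept in both libraries, this share was 5.74% and 3.59% in CD4SP and 0% for each in CD8SP. Lck stood at 90.2 and 120 FPKM and Cd3e at 90.5 and 152. Bcl11b, a transcription factor gene of T cell commitment, had a 3prime_fragment of 5163 bases in CD4SP that kept 2 of 3 exons and ended in an intron 70033 bases from an annotated end, at 75% A. Satb1, a chromatin organiser, had an internal fragment of 2 exons and 6525 bases in CD4SP (30% A). In CD8SP Ptprc, which encodes CD45, had one of 2 exons and 3950 bases (30% A), and Ikzf2, an Ikaros family gene, one of 3 exons and 2255 bases (10% A) that ended exactly at another annotated end of the gene.

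Of 51 splicing genes, 27 and 35 were listed, and 4 (14.8%) and 3 (8.57%) held a member. Over all annotated genes these shares were 7.62% and 6.30%. Hnrnpl kept the same 3 introns in isoforms of 4616 and 4591 bases, which started 6 bases apart and were followed by 20% and 80% A. The intron of 1982 bases among them was unspliced in 90.2% of the short-read FPKM over it in CD4SP and that of 1056 bases in 62.2%. For the third, of 111 bases, this was 13.9%. In CD8SP the shares were 100%, 58.1% and 22.4%. Clk1, a kinase of splicing factors, had 2 isoforms in CD4SP, which kept introns of 799 and of 87 bases. The longer of these introns was unspliced in 100% of the short-read FPKM and the shorter in 6.81%. Sf1 in CD8SP kept the last intron of its transcript, of 433 bases, which no short-read transcript spliced in either lineage. Mbnl1 had an isoform with a retained intron and a 3prime_fragment in CD4SP, both followed by 70% A, and Srrm2 an internal fragment in each library with the same start and ends 8 bases apart.

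Of 36 chromatin genes, 30 and 34 were listed and 6 held a member in each library (20% and 17.6%). The share over all annotated genes was 7.62% in CD4SP and 6.30% in CD8SP. Kmt2e had an internal fragment in both, starting 2 bases apart in an intron and ending at the same base of a coding exon (chr5:23464975-23485470 and chr5:23464973-23485470). Setd2, a histone methyltransferase gene, had one in each library that started 1 base apart and ended in different introns, at 70% and 15% A. Smarca4 and Brd2 had 2 members each in CD8SP and 0 in CD4SP. Both Brd2 isoforms ended at the same base. The CD4SP FPKM of Brd2 was listed at 0, as can follow from a failed estimate, which was not tested. Crebbp in CD4SP kept 19 of 30 exons and Ctcf 8 of 12. Dnmt3a, a DNA methyltransferase gene, had an isoform of 6328 bases with a retained intron in CD4SP, and its last 20 bases were 85% A against 20% after the end. Kmt2c in CD8SP kept 2 of 20 exons in 1117 bases, and 2 further genes of the list, Nsd3 and Kmt2d, held 1 member each.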

How the data were processed

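Long-read isoforms were read from the deposited classification tables, whose A content after the 3′ end is a percent over the genome, per the file headers. Which program classified them was not given in the sources used here. GRCm38, Cufflinks 2.1.1, TopHat2 2.0.14, GSNAP and RSEM 1.3.1 appear in the submitters' processing notes, with no role stated. Short-read transcripts carry the authors' FPKM, per the file headers, summed over RefSeq transcripts for a gene.

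Each isoform was rebuilt from its transcript in GENCODE M21 (GRCm38), its deposited end distances, exon number and length. All 603 were rebuilt to the exact length, 7 with more than 1 possible set of kept introns. In a test on simulated data 400 of 400 isoforms were recovered. The simulated ends lay on exon boundaries, so ends in introns or past the transcript were not checked by it. Cases with more than 1 possible set counted as recovered when the lacking exons were right. An exon is lacking when no base of it is spanned. Intronic sequence was mostly not read. Sequences come from 3′ windows in annotated exons of any GENCODE transcript.

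Python 3.11.15 with scipy 1.17.1 and statsmodels 0.14.6 was used for Fisher's exact tests, adjusted by Benjamini-Hochberg over 5 comparisons. Alternatives covered denominators, thresholds, 1 isoform per gene, subcategories and overlap criteria. Members and gene lists were chosen with earlier results of these data known. Named are the 10 genes with most members, the 6 isoforms per library lacking most 5′ exons, the 5 per library highest in A, the 3 3prime_fragment isoforms of 20% A or less lacking most 5′ exons (all at 0, so ranked by 3′ exons), the 6 longest shared chains, and list genes, up to 8 each. The sequences printed were chosen after their values were seen, and Ezh2 falls outside this rule. Some genes that the rule names are not reported here.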

Additional observations from a re-analysis of the deposited data

How the results depend on the processing

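The A-rich share of members, pooled over subcategories, stayed above that of full matches in both libraries. It stayed past the threshold at thresholds of 50, 70 and 80% and with 1 isoform per gene. The subcategories were not tested apart against full matches. The share of isoforms that are members, lower in CD8SP by 0.51 points without passing, passed with multi-exon isoforms as the denominator (-2.10 points, Fisher's exact test, adjusted p = 0.011) and with multi-exon full and incomplete matches (-5.70 points, Fisher's exact test, adjusted p = 3.87e-05). The difference in the 3prime_fragment share turned to +1.03 points with 1 member per gene (Fisher's exact test, adjusted p = 0.748). The listed exon number fell short of that of the associated transcript by a median of 6 in CD4SP and 6 in CD8SP. This count also takes in exons merged by a kept intron, which are not lacking by the definition above. Length by subcategory gave 2911, 2900.5 and 3395 bases in CD4SP and 2511, 2185 and 2974 in CD8SP. The share of members found in the other library fell from 59.9% to 48.4% for the same chain and 44.7% with both ends, and rose to 70.4% when any known class of the transcript counted, in CD4SP, and in CD8SP it fell from 61.2% to 50.2% and 45.5%, and stood at 65.9% over any known class. The A-rich difference between the libraries lay between -1.97 points (recomputed from annotated sequence, 28.6% against 26.6%) and -9.19 points (3prime_fragment isoforms alone), and passed under none of its 8 alternatives. Intronic 3′ ends of internal and 3prime_fragment isoforms fell to 70.4% and 63.3% against all exons of the gene, an alternative chosen after seeing the data. The cause was not tested. No paired analysis was possible because each lineage has 1 long-read library and 1 pooled short-read table. Without read counts per isoform, absence from a library cannot be told apart from low depth.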
